A study of Mus musculus with 6 samples.

Results

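The genes described here encode the machinery of cell division: the regulators of the G1 phase, the enzymes that copy DNA in S phase and the proteins that assemble the spindle and separate chromosomes in mitosis. They are 51 genes chosen by name, each with 1 entry among the 55401 genes of the deposited table. By their textbook roles they were divided into 13 regulators of G1 and of the step from G1 to S, 15 S phase genes and 23 genes of G2 and mitosis. The measurements are RNA levels in whole liver of 6 male mice from 2 genotypes, with 3 mice in each. The control mice, Prdx1(lox/lox), carried floxed alleles of Prdx1, which encodes the peroxide-reducing enzyme peroxiredoxin 1. The knockout mice, Prdx1(lox/lox);Alb-cre, carried the same alleles and a Cre recombinase under the albumin promoter, which is active in hepatocytes. Both groups began at 8 weeks of age and spent 5 weeks on MCD, as the labels write it. No group without MCD and no group with Cre alone enters the comparison, so an effect of the transgene cannot be told apart from that of the loss of Prdx1. P-values measure the spread between these mice. Whole liver holds many cell types, and a change in the share of dividing cells cannot be told apart from a change in RNA per cell.

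A dividing cell passes through G1, S phase, G2 and mitosis. D-type cyclins with Cdk4 or Cdk6, and then E-type cyclins with Cdk2, release E2F factors from the retinoblastoma protein RB, and E2F factors switch on the genes of DNA replication. The MCM helicase and its loaders open the replication origins, and ribonucleotide reductase and thymidylate synthase supply the building blocks. Later the MuvB complex, with B-Myb and FoxM1, drives the genes of mitosis, many of which carry a short promoter element called CHR. Hepatocytes of an adult liver are mostly at rest and re-enter the cycle after injury, often with more than a single set of chromosomes, because part of them replicate DNA without dividing. The atypical factor E2f8 is known for its part in that process in liver.

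Across the series, deposited counts totalled between 58790874 and 78291273 per library. The targeted gene Prdx1 (chromosome 4, 116685544 to 116700822, GRCm38) was measured at 644, 570 and 663 CPM (counts scaled to a common library size) in the control livers and at 78.7, 111 and 75.4 CPM in the knockout livers, in the direction of the genotype labels. Hepatocyte markers were present at high levels in all libraries. Of 10 such markers, 9 fell in the knockouts and 1, Cps1, was not called, and their summed level was 93282 to 115821 CPM in controls and 53310 to 67053 CPM in knockouts. Markers of several other cell types rose: all 8 for bile duct, all 9 for macrophages, 7 of 8 for stellate cells and fibroblasts, 5 of 8 for T and NK cells and 3 of 4 tested for neutrophils. Their summed levels went from 64.6 to 80.1 CPM up to 1126 to 1312 CPM for bile duct, from 1187 to 1329 CPM up to 2649 to 2902 CPM for macrophage and from 688 to 767 CPM up to 1944 to 2273 CPM for stellate cell markers. Most of the bile duct sum was Spp1, at 52.6 ± 8.22 CPM in controls and 980 ± 88.5 CPM in knockouts (SD, n = 3 each). Fewer genes were called in the other lists: 2 of 7 endothelial markers rose and 1 fell, 1 of 6 markers of B and plasma cells was higher and 1 lower, and 1 of 6 tested erythroid markers fell. The summed endothelial level was 401 to 431 CPM in controls and 358 to 404 CPM in knockouts. T and NK cell markers had a summed level of only 3.42 to 5.08 CPM in controls and 9.06 to 12.3 CPM in knockouts. The part of these shifts in the changes of the cell cycle genes was not tested.

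In the knockout livers 11 of 23 genes of mitosis were lower, S phase genes apart from Rrm2 and Mcm2 were not called, and G1 genes went both ways. By edgeR's quasi-likelihood test on all 18931 tested genes, with Benjamini-Hochberg adjustment and a threshold of 0.05, 17 of the 51 genes were lower and 4 were higher in the knockouts. Over all tested genes, 18% were called lower and 19.9% higher, so the 33.3% of the 51 called lower lies above the background share and the 7.84% called higher lies below it. Among the 23 mitotic genes, 11 were lower, 2 higher and 10 not called. Among the 15 S phase genes, 2 were lower and 0 higher. The 0 was also the count at an unadjusted p under 0.05, in DESeq2 and in limma on FPKM, while edgeR with library sizes alone called 2. Among the 13 G1 genes, 4 were lower and 2 higher. All 51 genes passed the filter on low counts. At a change of at least 2-fold, 13 of the 51 were lower and 1 higher, against 3.83% and 12.3% of all tested genes. The livers of the genotypes did not overlap in CPM for 22 genes that were lower and 4 that were higher, where 24.2% and 28.8% of all tested genes stood apart in these directions. The count of higher genes fell whichever library was left out. It was 2 without control replicate 1 and 3 without control replicate 2 or 3. Without knockout replicate 1 or 2 it was 2, and without knockout replicate 3 it was 1. Over all tested genes the higher count fell as well, from 3767 to between 2892 and 3645. The count of lower genes among the 51 was 11 without control replicate 3, where 3104 of 19951 tested genes were lower. By phase, 1 G1 gene was higher without control replicate 1 or 3 or knockout replicate 3, and 2 were lower without control replicate 2 or 3 or knockout replicate 3. A single S phase gene, Rrm2, was lower without control replicate 2 or 3 or knockout replicate 1 or 3. Of mitotic genes, 1 was higher without control replicate 1 or 2 and 0 without any of the knockouts.

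The median log2 fold change was -0.85 for mitotic genes, -0.26 for S phase genes and 0.024 for G1 genes, against 0.047 for all tested genes. These values use TMM factors, which scale libraries so that most genes do not change on balance. With library sizes alone, the median of all genes was 0.41 and those of the 3 phases were -0.48, 0.11 and 0.40. The sign of the S phase median therefore depended on the scaling. The change of scaling shifts all genes by nearly the same amount, so it could hardly alter the order of the phases. Relative to the median of all genes, mitotic and S phase genes were lower under both scalings. With library sizes alone, 10 of the 51 genes were lower and 10 higher, against 6.6% and 34.1% of all genes. The 10 lower genes were E2f8, Ccne1, Rrm2, Cdc20, Ube2c, Kif20a, Aurka, Tpx2, Ccnb1 and Birc5. All are among the 17 lower with TMM factors, which an upward shift of all genes makes nearly certain.

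**Figure D1:**
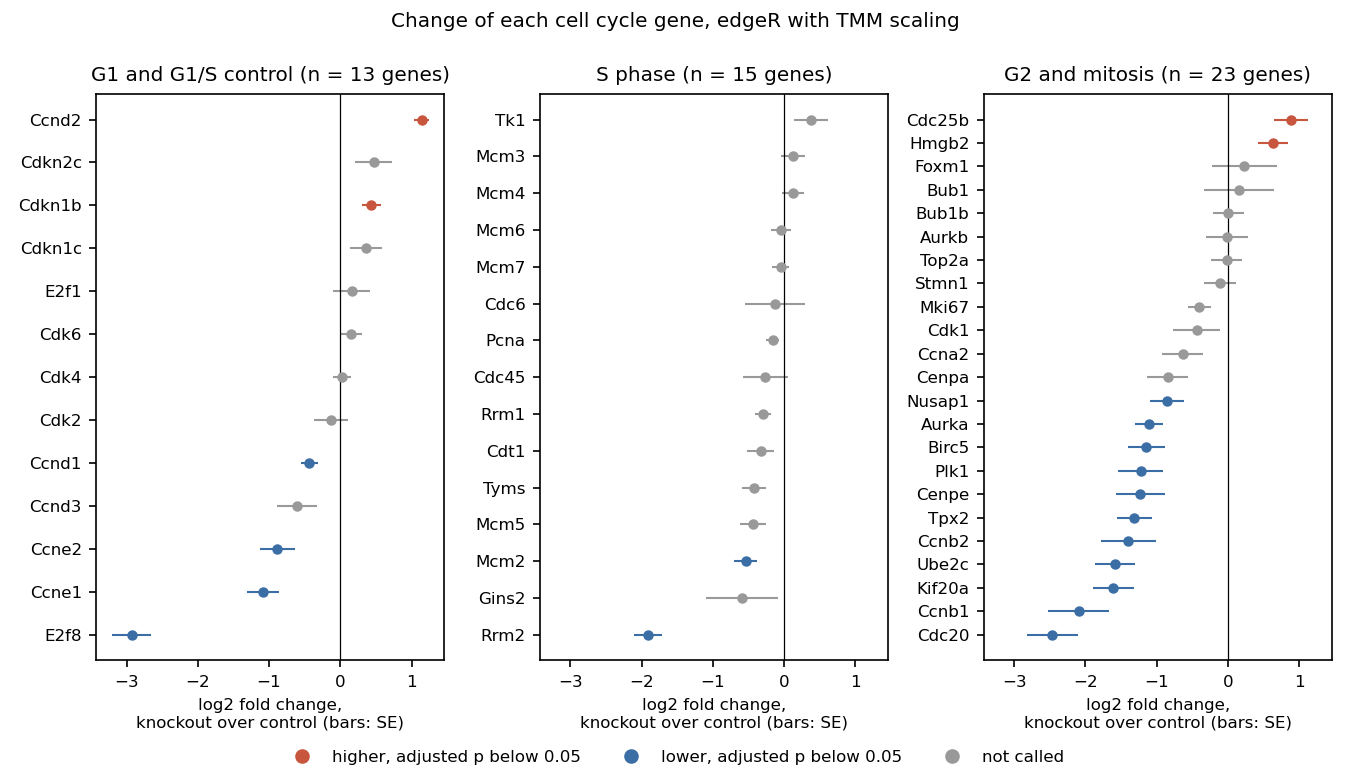
Log2 fold change of each of the 51 genes, knockout over control (x axis, bars give the SE of the edgeR estimate), in 3 panels by phase and sorted by value. Filled points in red or blue passed an adjusted p of 0.05: 11 of 23 mitotic genes lie to the left in blue, while in S phase Rrm2 and Mcm2 are the genes in blue.

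**Figure D2:**
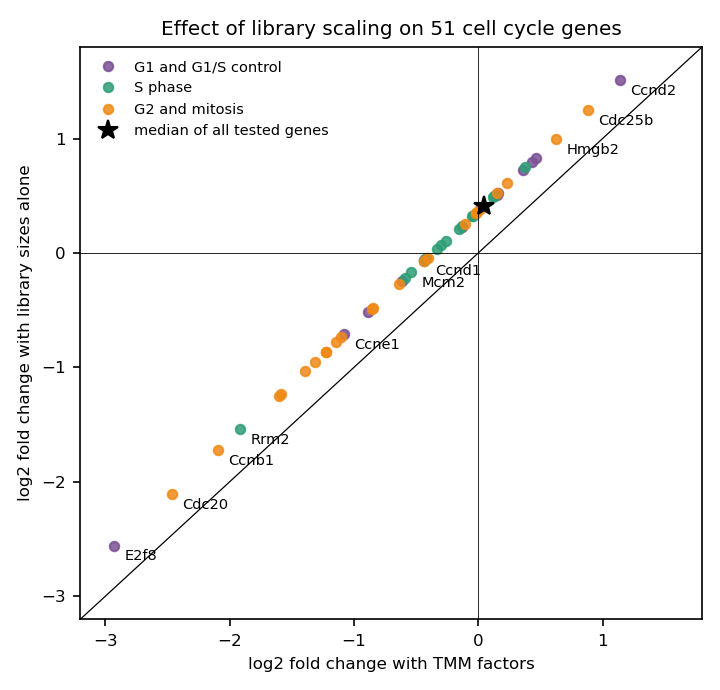
Log2 fold change of the 51 genes with TMM factors (x axis) against that with library sizes alone (y axis), coloured by phase, with the line of equality. Every point lies above the line because of the common shift, and the star marks the median of all tested genes at 0.047 and 0.41.

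Seen by liver, the medians of mitotic genes lay apart between the genotypes, those of S phase genes lay narrowly apart and those of G1 genes overlapped. These medians use CPM, which carry the TMM factors, and were not computed with library sizes alone. The median over the 23 mitotic genes of the log2 ratio to the control geometric mean was 0.048, -0.27 and 0.27 in control replicates 1, 2 and 3. In the knockouts it was -0.89, -0.62 and -0.80. All 3 knockout livers lay below all 3 control livers, by a margin smaller than the spread among controls, and control replicate 3 stood highest. For S phase genes the controls spanned -0.15 to 0.18 and the knockouts -0.23 to -0.16, so the groups stood apart by a margin smaller than the spread among controls. For G1 genes the ranges overlapped, at -0.036 to 0.13 in controls and -0.043 to 0.27 in knockouts.

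**Figure D3:**
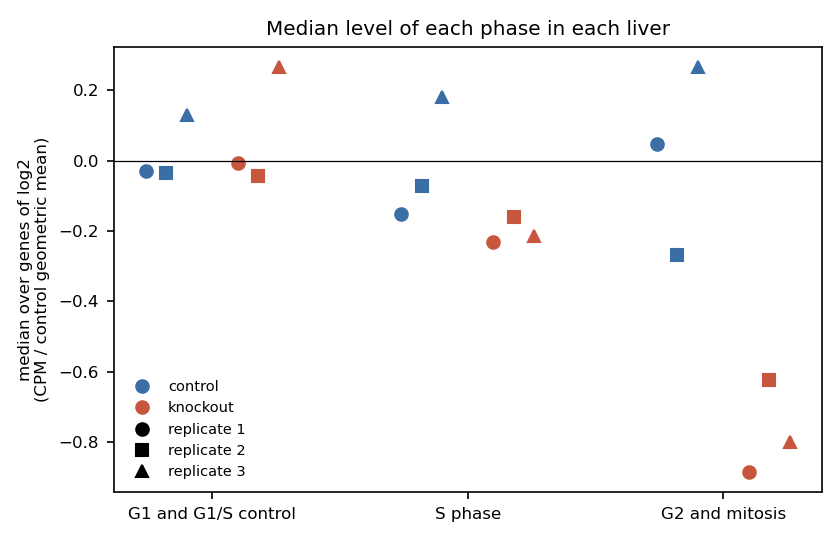
Median over the genes of each phase of the log2 ratio of CPM to the control geometric mean (y axis), for each of the 6 livers, with colour for genotype and marker shape for replicate. The knockout livers sit between -0.89 and -0.62 for mitotic genes, below every control liver. The CPM carry the TMM factors, and the medians were not computed with library sizes alone.

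The D-type cyclins, which bind Cdk4 and Cdk6 and carry growth signals into the cycle, changed unequally. Cyclin D2 (Ccnd2, chromosome 6, 127125162 to 127152193) was at 22.5, 20.4 and 19.1 CPM in the controls and at 43.7, 45.7 and 47.1 CPM in the knockouts. Every knockout liver exceeded every control liver, and Ccnd2 rose by 1.14 ± 0.10 (log2, SE), with an adjusted p of 0.000173 in edgeR. Cyclin D1 (Ccnd1, chromosome 7, 144929931 to 144939925) had the highest level of the 51 genes per transcript length, at 48.9 ± 7.23 FPKM in controls and 46.1 ± 4.63 FPKM in knockouts (SD, n = 3 each). Its control livers were at 249, 277 and 332 CPM and its knockout livers at 199.5, 232 and 204 CPM. The groups did not overlap there, and Ccnd1 fell by 0.43 ± 0.12 (adjusted p = 0.0265, edgeR), but with library sizes alone the value was -0.064 (adjusted p = 0.722). The Ccnd1 call was also lost without control replicate 2 (0.0515), control replicate 3 (0.0662), knockout replicate 1 (0.0966) and knockout replicate 3 (0.0805). Cyclin D3 (Ccnd3) was at 40.4, 36.9 and 44.2 CPM in controls and 14.7, 31.6 and 33.2 CPM in knockouts, where replicate 1 stood apart, and was not called (-0.61 ± 0.28, adjusted p = 0.127).

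Within a library, ratios of FPKM do not depend on how libraries are scaled, and the following were chosen after the values were seen. Ccnd2 made up 3.30% ± 0.687 of the summed FPKM of the 3 D-type cyclins in controls and 9.18% ± 0.682 in knockouts (SD, n = 3 each). The ranges were 2.61% to 3.98% and 8.39% to 9.61%, with no overlap.

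The E-type cyclins, which activate Cdk2 at the entry to S phase, both fell. Ccne1 (chromosome 7, 38097984 to 38107534) was at 4.25, 5.61 and 5.39 CPM in the controls and 2.71, 2.48 and 2.01 CPM in the knockouts, lower in every knockout liver. It fell by 1.08 ± 0.22 (log2, SE; adjusted p = 0.00721, edgeR). Ccne2 was at 3.16, 4.0 and 4.31 CPM and 2.45, 1.75 and 2.02 CPM and fell by 0.88 ± 0.25 (adjusted p = 0.0248), again with no overlap. The Ccne2 call was lost with library sizes alone (-0.51, adjusted p = 0.143) and without control replicate 2 (0.0608), control replicate 3 (0.0667), knockout replicate 2 (0.0846) or knockout replicate 3 (0.0711). Ccne2 overlaps Ints8 on the opposite strand by 5622 bases, which leaves its counts uncertain. Cdk2, the kinase that E-type cyclins activate, was not called, at -0.13 ± 0.24 (0.23 with library sizes alone). The partners of the D-type cyclins were not called either, Cdk4 at 0.024 ± 0.12 and Cdk6 at 0.15 ± 0.15. Cdk4 and Cdk6 passed with library sizes alone, at 0.40 (adjusted p = 0.0416) and 0.51 (0.0205). Cdk4 overlaps Tspan31 on the opposite strand by 641 bases. Tspan31 was at 325 CPM in controls and 162 CPM in knockouts, so reads of these genes may be shared.

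E2f8, an atypical E2F repressor, had the lowest log2 fold change of the 51 genes. The gene (ENSMUSG00000046179, chromosome 7, 48866429 to 48881596, GRCm38) was at 16.2, 9.95 and 15.5 CPM in the controls and 2.31, 1.74 and 1.41 CPM in the knockouts. All knockout livers were far below the lowest control, and E2f8 fell by 2.93 ± 0.27 (log2, SE; adjusted p = 0.000229, edgeR). A noncoding gene on the opposite strand, Gm2788, overlaps 3639 bases of E2f8 and fell with it, from 15.8 ± 6.64 to 0.716 ± 0.313 CPM (log2 fold change -4.45 ± 0.43, adjusted p = 0.000276). The libraries were made with a strand-marking protocol, but the strand setting of the counting is not given in the sources used here, so reads from these genes cannot be told apart with certainty. E2f1, an activating E2F, was not called (0.16 ± 0.26), with 2.75 to 4.62 CPM in controls and 3.52 to 4.49 CPM in knockouts. The ratio of E2f8 to E2f1 in FPKM, chosen after the values were seen, was 2.41 ± 0.873 in controls and 0.280 ± 0.0988 in knockouts (SD, n = 3 each).

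The CDK inhibitors, which hold cells in G1, all had positive log2 fold changes, and 1 of 3 was called. Cdkn1b (p27, chromosome 6, 134920401 to 134925513) was at 32.2, 36.5 and 32.6 CPM in the controls and 41.1, 41.3 and 54.4 CPM in the knockouts, higher in every knockout liver. It rose by 0.43 ± 0.13 (log2, SE; adjusted p = 0.0345, edgeR), a call lost without control replicate 1 (0.105), control replicate 3 (0.0903) or knockout replicate 3 (0.0821). Cdkn2c (p18) was at 15.4, 6.99 and 12.7 CPM in controls and 17.4, 15.3 and 15.8 CPM in knockouts, with the highest control inside the knockout range (0.47 ± 0.26, adjusted p = 0.206). Cdkn1c (p57), an imprinted gene, was at 3.51, 2.60 and 2.62 CPM and 3.68, 3.35 and 4.16 CPM, also overlapping (0.36 ± 0.23, adjusted p = 0.260). With library sizes alone the values of Cdkn2c and Cdkn1c were 0.83 and 0.72, with adjusted p of 0.0402 and 0.0374.

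**Figure D4:**
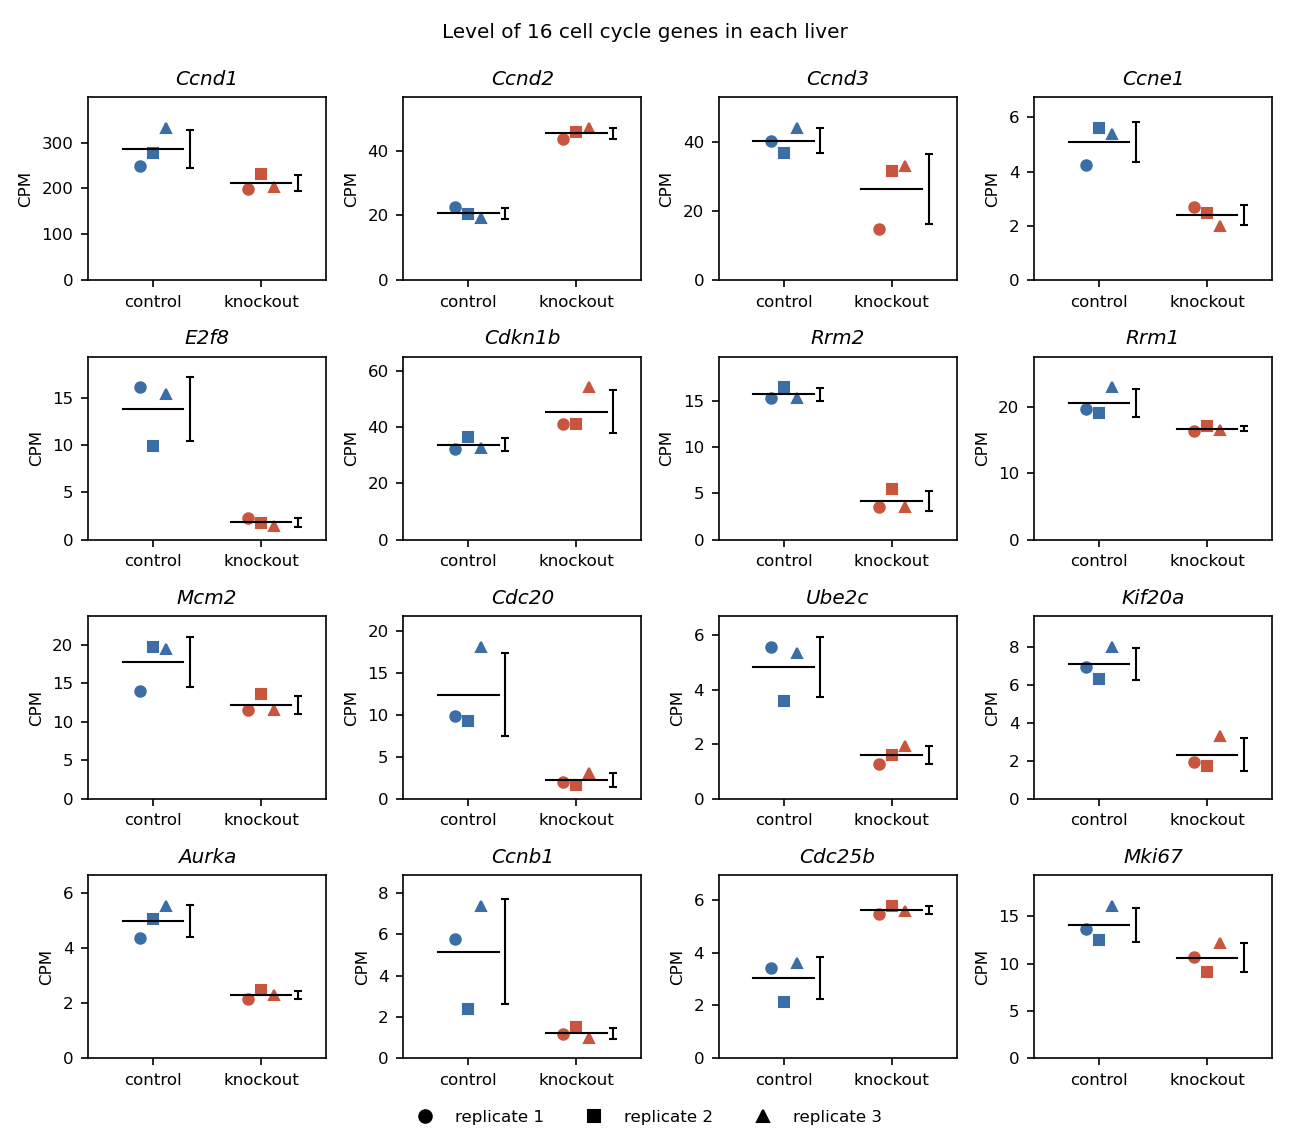
Level in CPM (y axis, from 0) of 16 cell cycle genes in each liver, control in blue and knockout in red, with marker shape for replicate, a line at the mean and a bar of 1 SD on each side. Ccnd2 and Cdc25b lie higher in all 3 knockout livers, E2f8, Rrm2 and Cdc20 lie lower, and Rrm1 and Mki67 differ by less.

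Among S phase genes, Rrm2 fell and its partner Rrm1 was not called. Rrm2 encodes the small, cell cycle regulated subunit of ribonucleotide reductase and Rrm1 the large subunit. Rrm2 (ENSMUSG00000020649, chromosome 12, 24708241 to 24714146) was at 15.4, 16.5 and 15.4 CPM in the controls and 3.58, 5.44 and 3.52 CPM in the knockouts. The controls lay close together, every knockout liver was lower, and Rrm2 fell by 1.91 ± 0.20 (log2, SE; adjusted p = 0.00037, edgeR). Rrm1 was at 19.7, 19.1 and 23.0 CPM and 16.4, 17.2 and 16.6 CPM (-0.30 ± 0.11, adjusted p = 0.0742), and its sign turned with library sizes alone (0.067). The ratio of Rrm2 to Rrm1 in FPKM, chosen after the values were seen, was 3.07 ± 0.396 in controls and 0.987 ± 0.235 in knockouts (SD, n = 3 each), and it was lower in all 3 knockout livers than in any control liver.

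The other genes of nucleotide supply were not called. Thymidylate synthase (Tyms) was at 8.16 ± 0.572 CPM in controls and 6.10 ± 0.975 CPM in knockouts (SD, n = 3 each), with groups that did not overlap and an adjusted p of 0.0914 in edgeR. Thymidine kinase (Tk1) stood at 0.38 ± 0.24 (0.75 with library sizes alone, adjusted p = 0.0447). Tk1 lies in full within the gene model Gm20708 on the opposite strand, which was at 13.5 CPM in controls and 23.2 CPM in knockouts, so its reads may be shared.

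Of the 6 subunits of the MCM helicase, which unwinds DNA at the fork, Mcm2 was called. Mcm2 (chromosome 6, 88883474 to 88898780) was at 14.0, 19.7 and 19.4 CPM in the controls and 11.5, 13.5 and 11.5 CPM in the knockouts. The groups did not overlap, though control replicate 1 lay close to knockout replicate 2, and Mcm2 fell by 0.54 ± 0.16 (log2, SE; adjusted p = 0.0344, edgeR). That call was lost with library sizes alone (-0.17, adjusted p = 0.460), without a count filter (0.0581) and without control replicate 2 (0.103), control replicate 3 (0.0965), knockout replicate 1 (0.112) or knockout replicate 3 (0.104). The other 5 subunits were not called, with log2 fold changes from -0.44 for Mcm5 to 0.13 for Mcm3, and with library sizes alone they spanned -0.069 to 0.50, where Mcm4 passed (0.49, adjusted p = 0.0453). The loaders and helicase activators Cdc6, Cdt1, Cdc45 and Gins2 were not called either, at -0.13, -0.33, -0.26 and -0.59. Gins2 had a single high control, at 9.31 CPM against 3.46 and 2.41 CPM. Gins2 overlaps Gse1 on the opposite strand by 2758 bases. Gse1 was at 25.5 CPM in controls and 44.8 CPM in knockouts, so reads of these genes may be shared. The clamp Pcna, which also serves DNA repair, was at 51.7 ± 2.66 CPM in controls and 46.3 ± 3.33 CPM in knockouts (-0.16 ± 0.09, or 0.21 with library sizes alone).

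The promoters of Rrm2 and Mcm2, the S phase genes with the smallest p, are shown because the genes of a phase are known to share promoter elements. Each window runs from 250 bases before to 50 bases after the RefSeq start (GRCm38.p6) and is written 5′ to 3′ on the strand of the gene, with matches on either strand in capitals. The E2F core was searched in the form TTGGCGC, in the form TTCCCGC, in the form TTCGCGC and in the form TTGCCGC. The CHR element was searched in the form TTTGAA and in the form TTCGAA, and the box bound by NF-Y as CCAAT, on both strands, and matches may overlap. Rrm2 is at chr12:24708004-24708303 on the plus strand and Mcm2 at chr6:88898731-88899030 on the minus strand.
Rrm2: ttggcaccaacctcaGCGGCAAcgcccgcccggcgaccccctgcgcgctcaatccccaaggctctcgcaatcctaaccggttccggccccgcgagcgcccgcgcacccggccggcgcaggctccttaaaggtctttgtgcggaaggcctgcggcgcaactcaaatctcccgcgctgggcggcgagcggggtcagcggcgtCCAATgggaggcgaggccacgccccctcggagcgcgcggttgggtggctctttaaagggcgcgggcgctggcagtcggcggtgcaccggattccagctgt
Mcm2: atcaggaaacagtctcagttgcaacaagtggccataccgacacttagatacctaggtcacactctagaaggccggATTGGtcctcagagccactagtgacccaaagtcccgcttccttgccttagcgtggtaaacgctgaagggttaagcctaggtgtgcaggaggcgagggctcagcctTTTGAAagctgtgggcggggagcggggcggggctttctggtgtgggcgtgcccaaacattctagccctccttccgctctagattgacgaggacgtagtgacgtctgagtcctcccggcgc

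In Rrm2 the match to an E2F core, at position -235 from the start and on the minus strand, was TTGCCGC, and a CCAAT box began at -50. In Mcm2 a CHR form began at -70 and a CCAAT box on the minus strand at -175. Windows were found for 39 of the 51 genes, and the first listed window was used for each gene. An E2F core was present in 8 of 13 S phase windows (61.5%), 3 of 17 mitotic windows (17.6%) and 3 of 9 G1 windows (33.3%), against 9.69% of 27025 genes with a window. These matches are letters in a window and show no binding.

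Each functional class of mitotic genes held at least 2 that fell, except that of chromatin and chromosome structure, with 0 of 3. The partners of the anaphase-promoting complex, which marks proteins for destruction at the exit from mitosis, were both lower. Its activator Cdc20 (ENSMUSG00000006398, chromosome 4, 118432901 to 118437352) was at 9.79, 9.26 and 18.1 CPM in the controls and 1.96, 1.63 and 3.13 CPM in the knockouts. Control replicate 3 was the highest, no knockout liver reached the lowest control, and Cdc20 fell by 2.47 ± 0.35 (log2, SE; adjusted p = 0.00146, edgeR). Its ubiquitin-conjugating enzyme Ube2c (chromosome 2, 164769898 to 164778822) was at 5.58, 3.59 and 5.36 CPM and 1.27, 1.60 and 1.95 CPM, again with no overlap. Ube2c fell by 1.59 ± 0.28 (adjusted p = 0.00348).

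The promoters of these genes, which had the smallest p of the mitotic genes, are printed in the same way. Cdc20 is at chr4:118437294-118437593 on the minus strand and Ube2c at chr2:164769679-164769978 on the plus strand.
Cdc20: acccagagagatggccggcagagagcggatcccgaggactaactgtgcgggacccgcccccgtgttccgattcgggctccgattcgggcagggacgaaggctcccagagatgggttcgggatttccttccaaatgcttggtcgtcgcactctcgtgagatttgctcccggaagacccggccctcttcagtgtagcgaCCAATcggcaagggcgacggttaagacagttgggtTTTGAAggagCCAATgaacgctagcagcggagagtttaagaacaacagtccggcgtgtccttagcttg
Ube2c: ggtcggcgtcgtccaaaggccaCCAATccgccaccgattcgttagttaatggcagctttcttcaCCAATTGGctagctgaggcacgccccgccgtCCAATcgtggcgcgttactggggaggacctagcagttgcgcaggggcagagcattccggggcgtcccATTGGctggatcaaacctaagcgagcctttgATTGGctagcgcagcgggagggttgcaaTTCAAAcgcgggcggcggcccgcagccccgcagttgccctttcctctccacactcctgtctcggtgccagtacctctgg

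Both windows hold a CHR form close to the start, at -18 in Cdc20 and, on the minus strand, at -29 in Ube2c, with 2 CCAAT boxes in Cdc20 and 6 in Ube2c. A CHR form was present in 13 of 17 mitotic windows (76.5%), 3 of 13 S phase windows (23.1%) and 1 of 9 G1 windows (11.1%), against 19.4% of all genes with a window. A CCAAT box was present in 15 of 17 mitotic windows (88.2%), against 37.9% of all genes. Within the mitotic genes the CHR form was found in 5 of 9 windows of genes called lower and in 8 of 8 windows of the other mitotic genes, and the CCAAT box in 7 of 9 and 8 of 8.

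Of 4 spindle genes, 3 fell. Kif20a, a kinesin of the central spindle (chromosome 18, 34624613 to 34633277), was at 6.97, 6.34 and 8.04 CPM in the controls and 1.95, 1.73 and 3.33 CPM in the knockouts, and fell by 1.61 ± 0.28 (log2, SE; adjusted p = 0.00363, edgeR). Tpx2, which activates Aurora A on spindle microtubules, was at 7.19, 4.53 and 4.98 CPM and 2.21, 2.02 and 2.48 CPM and fell by 1.31 ± 0.24 (adjusted p = 0.0045). In both genes every knockout liver was below every control liver. Kif20a overlaps Cdc23 on the opposite strand by 2327 bases, and Cdc23 was at 13.9 CPM in controls and 22.2 CPM in knockouts, so reads of these genes may be shared. Nusap1, a microtubule-bundling protein, was at 4.67, 3.16 and 3.75 CPM in controls and 2.06, 2.17 and 2.17 CPM in knockouts, without overlap, and fell by 0.85 ± 0.23 (adjusted p = 0.0234). The Nusap1 call was lost with library sizes alone (-0.49, adjusted p = 0.149), without control replicate 1 (0.0729) and without each knockout (0.0644 to 0.0749). Stmn1, a tubulin-binding protein also found outside mitosis, was not called (-0.11 ± 0.23, or 0.26 with library sizes alone).

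Of the mitotic entry kinases, both fell. Aurora A (Aurka, chromosome 2, 172356190 to 172370535) was at 4.35, 5.06 and 5.53 CPM in the controls and 2.17, 2.46 and 2.30 CPM in the knockouts, with no overlap, and fell by 1.11 ± 0.20 (log2, SE; adjusted p = 0.00419, edgeR). Polo-like kinase 1 (Plk1) was at 3.82, 3.52 and 5.12 CPM and 1.83, 1.15 and 2.35 CPM and fell by 1.23 ± 0.32 (adjusted p = 0.0194). The Plk1 call was lost with library sizes alone (-0.87, adjusted p = 0.0601), without control replicate 3 (0.0599) and without knockout replicate 1 (0.0568). The phosphatase Cdc25b, which activates Cdk1, moved the opposite way, from 3.41, 2.12 and 3.59 CPM to 5.47, 5.77 and 5.57 CPM. All knockout livers were higher, and Cdc25b rose by 0.88 ± 0.24 (adjusted p = 0.0227), a call lost without knockout replicate 1 (0.0608), 2 (0.0719) or 3 (0.0580). Cdc25b overlaps Spef1 on the opposite strand by 334 bases. Spef1 was at 3.19 CPM in controls and 6.07 CPM in knockouts, so reads of these genes may be shared. Foxm1, the transcription factor of G2 genes, was not called (0.23 ± 0.45), with 1.41 to 3.18 CPM in controls and 1.48 to 3.84 CPM in knockouts.

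Of the cyclins of mitosis, the B-type cyclins fell. Ccnb1 (chromosome 13, 100778650 to 100786570), the partner of Cdk1, was at 5.76, 2.36 and 7.37 CPM in the controls and 1.16, 1.49 and 0.969 CPM in the knockouts. Control replicate 2 was the lowest control and still lay above every knockout, and Ccnb1 fell by 2.09 ± 0.43 (log2, SE; adjusted p = 0.00701, edgeR). The annotated copy Ccnb1-ps was at 0.755 CPM in controls and 0.169 CPM in knockouts, and reads of these genes may be shared. Ccnb2 was at 3.23, 3.20 and 7.17 CPM in controls and 2.09, 1.27 and 1.81 CPM in knockouts, with control replicate 3 far above the rest, and fell by 1.40 ± 0.39 (adjusted p = 0.0244). Its annotated copy Ccnb2-ps was at 0.674 CPM in controls and 0.939 CPM in knockouts, and reads may be shared here too. The Ccnb2 call was lost with library sizes alone (-1.03, adjusted p = 0.0666), without control replicate 3 (-0.90, adjusted p = 0.0627) and without knockout replicate 2 (0.0840) or 3 (0.0621). Ccna2 and Cdk1, which act from S phase on, overlapped between groups and were not called (-0.64 ± 0.28 and -0.44 ± 0.33). Ccna2 passed without control replicate 2 (-0.89, adjusted p = 0.0171).

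Kinetochore and checkpoint genes were divided. Survivin (Birc5), a subunit of the chromosomal passenger complex, was at 4.28, 3.33 and 4.98 CPM in the controls and 2.18, 1.53 and 1.97 CPM in the knockouts, without overlap, and fell by 1.15 ± 0.26 (log2, SE; adjusted p = 0.0105, edgeR). Cenpe, a kinetochore kinesin, was at 3.50, 2.09 and 2.94 CPM in controls and 0.869, 1.17 and 1.60 CPM in knockouts, without overlap, and fell by 1.23 ± 0.35 (adjusted p = 0.0259). The Cenpe call was lost with library sizes alone (0.0799) and without control replicate 1 (0.0818), control replicate 3 (0.0590), knockout replicate 1 (0.0799) or knockout replicate 2 (0.0776). The centromeric histone Cenpa stood at -0.85 ± 0.29 (adjusted p = 0.0539) and passed in DESeq2 (0.0210) and without knockout replicate 2 (0.0265). Aurora B (Aurkb), a partner of Birc5, and the checkpoint kinases Bub1 and Bub1b were not called, at -0.017 ± 0.30, 0.15 ± 0.49 and 0.0038 ± 0.22.

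The markers most used to count dividing cells were not called. Mki67, which encodes the Ki-67 antigen, was at 13.6, 12.5 and 16.1 CPM in the controls and 10.7, 9.09 and 12.2 CPM in the knockouts. The groups did not overlap, by a narrow margin, and the log2 fold change was -0.40 ± 0.16 (adjusted p = 0.0850, edgeR), or -0.041 with library sizes alone. Top2a, the topoisomerase that untangles chromosomes, was at 6.97, 6.50 and 6.98 CPM and 7.35, 4.78 and 8.08 CPM, with knockouts on both sides of the controls (-0.017 ± 0.22, or 0.34 with library sizes alone). Hmgb2, a chromatin protein that is not limited to mitosis, was at 7.80, 5.69 and 9.36 CPM in controls and 13.1, 9.98 and 12.2 CPM in knockouts without overlap and rose by 0.63 ± 0.21 (adjusted p = 0.0488). The Hmgb2 call was lost with RLE factors (0.0514), without a count filter (0.0577) and without each library except control replicate 3 (0.0568 to 0.146).

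Levels of most of the 51 genes were low. In controls, the 5 highest per transcript length were Ccnd1, Pcna at 17.3 ± 1.04 FPKM, Cdk4 at 10.1 ± 0.973 FPKM, Stmn1 and Cdkn1b. The lowest were Cdc6 at 0.206 ± 0.0827 FPKM and Bub1 at 0.153 ± 0.0642 FPKM (SD, n = 3 each). Summed over each phase, the deposited FPKM were 79.8 to 92.9 in controls and 92.4 to 98.3 in knockouts for G1 genes. For S phase genes the sums were 43.2 to 51.3 and 45.5 to 54.0 FPKM, and for mitotic genes 26.3 to 43.8 and 26.6 to 29.1 FPKM. The FPKM sums of each phase thus overlapped between genotypes. The sum of mitotic genes over that of S phase genes, at 0.737 ± 0.122 and 0.572 ± 0.0740, overlapped as well. In CPM, which carry the TMM factors, the sums were lower in the knockouts without overlap. They were 485 to 567 in controls and 432 to 480 in knockouts for G1 genes. For S phase genes they were 200 to 243 and 175 to 195 CPM, and for mitotic genes 111 to 167 and 88.8 to 99.1 CPM.

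Other genes of the same pathways were taken from 3 lists. Overlapping genes and annotated copies were looked up for the 51 genes and not for these lists. Of 44 tested genes of the spindle, the kinetochore and cytokinesis, 14 were lower and 0 higher in edgeR, with 2 higher at an unadjusted p under 0.05, 0 higher in DESeq2 and 4 higher in limma on FPKM or with library sizes alone. The lower genes were 31.8% of the list, against 18% of all tested genes. In limma on FPKM the lower count was 8, 7 and 8 with pseudocounts of 0.5, 1 and 0.1 and 6 with no filter. Over all 18985 genes in the filtered limma fits, 1357, 1350 and 1353 were lower, and 6476 were higher with a pseudocount of 0.5. With no filter, 1149 of 27465 genes were lower. With library sizes alone 11 of the list were lower and 4 higher, against 6.6% and 34.1% of all tested genes. The median log2 fold change of the list with TMM factors was -0.76, against 0.047 for all genes. The count of lower genes ranged from 8 to 18 when a library was left out, with 9 without control replicate 1 or 3 or knockout replicate 1 and 8 without knockout replicate 2, and 1 gene was higher without control replicate 3. In those fits, 2641 to 3104 of all 19502 to 19951 tested genes were lower. Spc24, a subunit of the NDC80 kinetochore complex, went from 6.16 ± 0.444 to 1.48 ± 0.164 CPM (SD, n = 3 each) and fell by 2.06 ± 0.20 (log2, SE; adjusted p = 0.000297). The hyaluronan receptor Hmmr, which binds the spindle, fell by 2.43 ± 0.37 (adjusted p = 0.00187), Ckap2l by 1.66 ± 0.22 and Cdca3 by 1.67 ± 0.33.

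Of 40 tested genes of the replication fork and origins, 5 were higher and 3 lower, with a median of 0.041. These shares, 12.5% and 7.5%, lay below the 19.9% and 18% of all tested genes. Mcm10, a replication initiation factor (chromosome 2, 4989714 to 5012791), went from 73.6 ± 11.3 to 19.1 ± 2.65 CPM (SD, n = 3 each) and fell by 1.95 ± 0.15 (log2, SE; adjusted p = 0.000119, edgeR). Pold2 and Orc5 fell by 0.74 and 0.43, and both calls were lost with library sizes alone (adjusted p = 0.151 and 0.668). The Pold2 call was also lost without knockout replicate 2 (0.0553), and that of Orc5 without control replicates 2 and 3 or knockout replicates 1 and 2 (0.0637 to 0.0853). The catalytic subunit of polymerase epsilon, Pole, rose by 1.26 ± 0.25 (adjusted p = 0.00595), and Rrm2b, the ribonucleotide reductase subunit used outside S phase, went from 6.72 ± 0.456 to 11.3 ± 1.09 CPM and rose by 0.75 ± 0.14 (adjusted p = 0.00523). Rrm2b and Rrm2, which share the partner Rrm1, therefore moved in opposite directions under both TMM factors and library sizes alone. Pola2 and Orc2 rose by 0.52 and 0.68, and each call failed without knockout replicate 1 (adjusted p = 0.0824 and 0.114), control replicate 2 (0.0734 and 0.0859) or knockout replicate 3 (0.0511 and 0.0585). The Pola2 call also failed without control replicate 1 (0.0788) or knockout replicate 2 (0.0727), and that of Orc2 without control replicate 3 (0.0863). With library sizes alone, 15 of the 40 were higher and 1 lower, where 34.1% and 6.6% of all tested genes were called. The count of higher genes was 3 without knockout replicate 2 or 3 and 2 without control replicate 2 or knockout replicate 1. That of lower genes was 1 without knockout replicate 2.

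Of 24 tested RB, E2F and CDK inhibitor genes, 2 were higher and 3 lower, with a median of 0.13. These shares, 8.33% and 12.5%, also lay below the 19.9% and 18% of all tested genes. Cdkn2b (p15), an inhibitor of Cdk4 and Cdk6, went from 0.274 ± 0.157 to 1.42 ± 0.134 CPM (SD, n = 3 each) and rose by 2.37 ± 0.56 (log2, SE; adjusted p = 0.0132, edgeR). Cks1b, a cofactor of cyclin-dependent kinases, went from 11.1 ± 1.94 to 5.92 ± 0.352 CPM and fell by 0.91 ± 0.17 (adjusted p = 0.00431). The MuvB subunits Lin37 and Lin54 fell by 0.70 and 0.60, and both calls were lost with library sizes alone (adjusted p = 0.152 and 0.276) and without knockout replicate 1 (0.0588 and 0.0552). Without control replicate 2 and knockout replicate 2 the adjusted p of Lin37 was 0.0501 and 0.0552, and without control replicate 3 that of Lin54 was 0.0609. The RB relative Rbl2 rose by 0.26 ± 0.083 (adjusted p = 0.0396), a call lost without each library (0.0580 to 0.117). With library sizes alone this list had 8 of 24 genes higher and 1 lower, where 34.1% and 6.6% of all tested genes were called. The higher count was 1 without control replicate 1 or 3 or knockout replicate 1 or 3, and the lower count was 1 without knockout replicate 1.

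**Figure D5:**
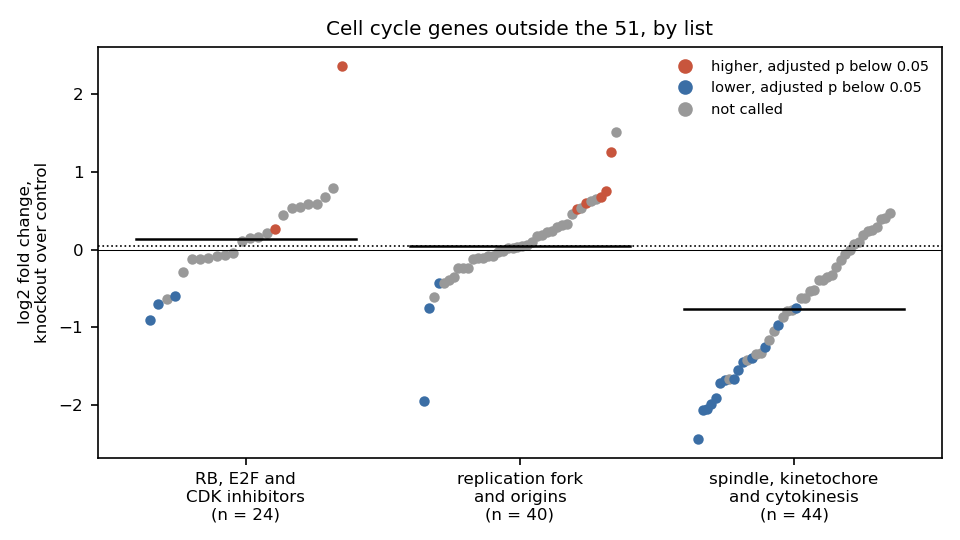
Log2 fold change (y axis) of the tested genes of 3 further lists, sorted within each list, with a line at the median of the list and a dotted line at 0.047, the median of all tested genes. In the list of spindle, kinetochore and cytokinesis genes, 14 points passed the threshold and all of these lie below 0.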

How the data were processed

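RNA of 6 livers was sequenced, 3 per genotype. The deposited table gives estimated counts and FPKM per gene, made by the authors; the FPKM are listed at 1e-04 where the count is 0. The submitters' processing notes name StringTie 1.3.4d, HISAT2 2.0.4, cutadapt 1.9, edgeR, UMI-tools and DESeq2, without their roles. They also name mm9, but 94.2% of the identifiers shared with GENCODE M21 have the same positions there, so positions are given as GRCm38. Low counts gather at multiples of 4 (854 genes at 4 in control replicate 1, 280 at 3 and 167 at 5). The columns named wt were taken as the control genotype, the only other genotype of the series.

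Estimated counts were tested as deposited with edgeR 4.0.16 (R 4.3.3), with TMM factors, the quasi-likelihood test and Benjamini-Hochberg adjustment over 18931 genes. Genes were kept by filterByExpr (minimum count 10, total 15). The SE is the log2 fold change divided by the square root of F. CPM are counts scaled to the TMM-adjusted library size. Alternatives were RLE factors, library sizes alone, no filter, DESeq2 1.42.0, limma 3.58.1 on log2(FPKM + 0.5) and other pseudocounts, a replicate block, counts divided by 4, a 2-fold minimum and leaving out each library. In simulated data for this comparison over 18931 genes, edgeR recovered 55% of 2-fold and 94% of 4-fold changes. There 100 genes were changed at each fold, up and down in equal number, all from genes above a minimum level. In the real data 37.9% of tested genes were called, so the simulated rates need not hold there.

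The 51 genes, the lists and the motifs were chosen with earlier results of these data known. Genes past the threshold are described with their value in each library, up to the 10 with the smallest p per phase, as are all D-type cyclins and CDK inhibitors; from each further list up to 4 genes per direction with the smallest p are named, and promoters are those of the 2 genes with the smallest p in S phase and mitosis that hold a motif. Of the 51 genes, 45 have the same position in GENCODE M21.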

Additional observations from a re-analysis of the deposited data

How the results depend on the processing

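No gene called among the 51 changed direction under any alternative run, and 7 of the 21 passed in all 16: Ccnd2, E2f8, Rrm2, Cdc20, Ube2c, Kif20a and Aurka. In all 6 fits without a library, 11 passed, these and Ccne1, Tpx2, Ccnb1 and Birc5. Among genes not called, 11 changed sign with library sizes alone and in each FPKM fit. The cause of the differences between settings was not tested.

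Library sizes alone put 6459 genes higher and 1249 lower. Of the 51, 10 were higher and 10 lower, with 6 and 2 in G1, 2 and 1 in S phase and 7 lower in mitosis. The medians were 0.039 for the 51, 0.40 for G1, 0.11 for S phase, where the sign turned, and -0.48 for mitosis. In limma on FPKM with a pseudocount of 0.5, 1 and 0.1, 18985 genes were fitted. In this order, 6476, 6456 and 6431 of them were higher and 1357, 1350 and 1353 lower. Each of these fits called 11 of the 51 lower, 4 G1 genes higher and 2 lower, and 1 S phase gene lower. In the same order, the medians of the 51 turned to 0.019, 0.015 and 0.025 and those of S phase to 0.051, 0.031 and 0.097. Those of G1 were 0.35, 0.26 and 0.37 and those of mitosis -0.25, -0.15 and -0.42. With no filter on FPKM, 5978 of 27465 genes were higher and 1149 lower. The 51 had 6 lower, G1 had 1, S phase 1 and mitosis 4, and the medians were 0.019, 0.35, 0.051 and -0.25. A 2-fold minimum left 2329 genes higher and 725 lower, 1 of the 51 higher, 1 G1 gene higher and 2 lower, 1 S phase gene lower and 0 mitotic genes higher. Without a count filter 1 S phase gene was lower and 1 mitotic gene higher, and with RLE factors 1 mitotic gene was higher.

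Without a library, 2892 to 3645 genes were higher and 2641 to 3104 lower. Of the 51, 1 to 3 were higher and 11 to 15 lower. G1 had 1 to 2 higher and 2 to 4 lower, S phase 0 higher and 1 to 2 lower, and mitosis 0 to 2 higher and 8 to 12 lower. The medians spanned -0.39 to -0.22 for the 51, -0.061 to 0.075 for G1, -0.33 to -0.12 for S phase and -0.89 to -0.62 for mitosis.

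The labels do not say whether the replicate numbers mark pairs or only name the mice. Deviations of same-numbered livers correlated at 0.0157, 0.0309 and 0.0353, and each liver correlated best with its own number. Differently numbered livers correlated at -0.0283 to -0.00322. With the replicate block, 3 of the 51 were higher and 15 lower, with 1 G1 gene higher; Ccne2 (0.0619), Cdkn1b (0.0578), Nusap1 (0.0560) and Cenpe (0.0550) lost their call and Cenpa (0.0345) gained it. In the further lists it left 3 replication genes and 1 RB and E2F list gene higher. In the simulated data, where far fewer genes were changed than were called here, DESeq2 gave 24.6% false calls, against 3.87% for edgeR. Most mitotic genes lay at a few CPM, and 3 mice per group limit what can be detected.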
